A study of Mus musculus with 16 samples.

Results

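The proteasome genes were taken as every mouse gene on the array whose symbol begins with Psma, Psmb, Psmc, Psmd, Psme, Psmf or Psmg and a number. Membership was set by name only and by no measured value, although earlier results of these data were known when the members were chosen. It gave 49 genes with 76 probes, out of 27670 genes and 41174 probes on the array, and 47 of the 49 had a heart signal that cleared background on 4 or more of the 16 arrays. The other 2, Psma8 and Psmb11, were not tested. Psmc3ip and Psme3ip1 matched by name although neither encodes a subunit, so 45 tested genes are proteasome genes proper. Psme2 and Psmg4 had no probe under their current symbols, and Psme2b, a near-identical intronless copy of Psme2, stood for that activator subunit, so signal from either gene cannot be told apart.

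The proteasome is the protease that degrades ubiquitin-tagged proteins. Its barrel-shaped core is built from outer rings of alpha subunits (Psma), which form the gate, and inner rings of beta subunits (Psmb), which carry the proteolytic sites. A regulatory particle caps the core: its base holds the ATPases that unfold substrates (Psmc) with large scaffold subunits (Psmd1, Psmd2), and its lid (other Psmd) removes ubiquitin chains. Activators (Psme) can replace that cap, and in cells exposed to interferon the catalytic beta subunits are exchanged for the immunoproteasome forms Psmb8, Psmb9 and Psmb10. In heart and skeletal muscle the muscle ring finger proteins MuRF1 (Trim63) and MuRF2 (Trim55) are ubiquitin ligases that mark sarcomere proteins for this protease.

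Whole hearts of 12 week old, strain-matched mice were compared in 4 genotypes of 4 mice each, 1 heart per array: wild type, MuRF1 het MuRF2 null (MuRF1 +/- MuRF2 -/-), MuRF1 null MuRF2 het (MuRF1 -/- MuRF2 +/-) and double null (MuRF1 -/- MuRF2 -/-). Cy5 marked the heart RNA, and on every array Cy3 marked the same reference, made from pooled whole C57BL/6 pups of postnatal day 1. Values below are log2 ratios of heart over reference after background correction and loess normalisation, so a difference of 1 between groups is a doubling. Nothing in the sources used here gives how the alleles were made or which part of each gene was removed. By the channel entries of the labels no dye was swapped, although the labelling protocol names only Cy3.

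The arrays differed in brightness, and brightness moved with genotype. Probes with a Cy5 signal clear of background (the scanner software's well-above-background flag) numbered 16129 to 17391 on MuRF1 het MuRF2 null arrays, 15171 to 16664 on wild type arrays, 6402 to 15067 on MuRF1 null MuRF2 het arrays and 6037 to 14503 on double null arrays. Double null 2 and MuRF1 null MuRF2 het 1 were the dimmest. Wild type and double null arrays shared slides 1 and 3, whereas slide 4 held all MuRF1 het MuRF2 null arrays and slide 2 all MuRF1 null MuRF2 het arrays, so for those 2 genotypes slide and genotype cannot be told apart. Of the 47 genes, 38 were well above background on all 16 arrays, none was saturated, and none was below background on every array of a group. Trim63 followed the labels, at 2.51 to 2.71 in wild type, -1.04 to -0.39 in double null hearts, 1.70 to 2.13 with 1 MuRF1 allele and -0.85 to -0.34 in MuRF1 null MuRF2 het hearts. Trim55 was at -1.90 to -1.57 in wild type, -1.53 to -1.08 in MuRF1 het MuRF2 null and -1.66 to -0.52 in double null hearts. The part of Trim55 that was removed is not known here, so its probe does not check the labels. Psmb2 lies within 10 Mb of Trim63 on chromosome 4, where DNA of the strain that carried the deletion can remain, and double null hearts differed from wild type in it by 0.00 ± 0.11 (SE; limma, adjusted p = 0.984).

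In double null against wild type hearts, 11 of the 47 genes rose and 1 fell (limma, adjusted p under 0.05 over all 12331 genes). Across all genes, 10.3% rose and 12% fell, against 23.4% of the proteasome genes that rose. The 11 were Psma1, Psma2, Psma3, Psma5 and Psma7 of the alpha ring, Psmb1, Psmb3 and Psmb4 of the beta ring, the ATPase Psmc4, the lid deubiquitinase Psmd14 and the base-assembly chaperone Psmd10, with differences from 0.23 to 0.69, and the activator Psme4 fell by 0.77. The direction depended on the scaling of the arrays: with each array centred on its median in place of loess, the median of all genes shifted to -0.49, that of the 47 genes went from 0.13 to -0.89, and 0 rose while 17 fell. The count of 11 was 2 with the authors' Feature Extraction ratios and 4 with array brightness as a covariate. Leaving out 1 array at a time gave 2 to 13, with 2 without double null 1, 3 without wild type 2 and 4 without wild type 3, wild type 4 or double null 4. Of the 12 calls, Psma2 and Psmd14 alone held without any 1 array. The number of the 8 arrays without which a call was lost was 1 for Psme4, 2 for Psma5, 3 for Psma1, 4 for Psma3, 5 for Psmb1 and Psmd10, 6 for Psma7, Psmb3 and Psmc4, and 7 for Psmb4. All values that follow are on the loess scale unless said otherwise.

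**Figure D1:**
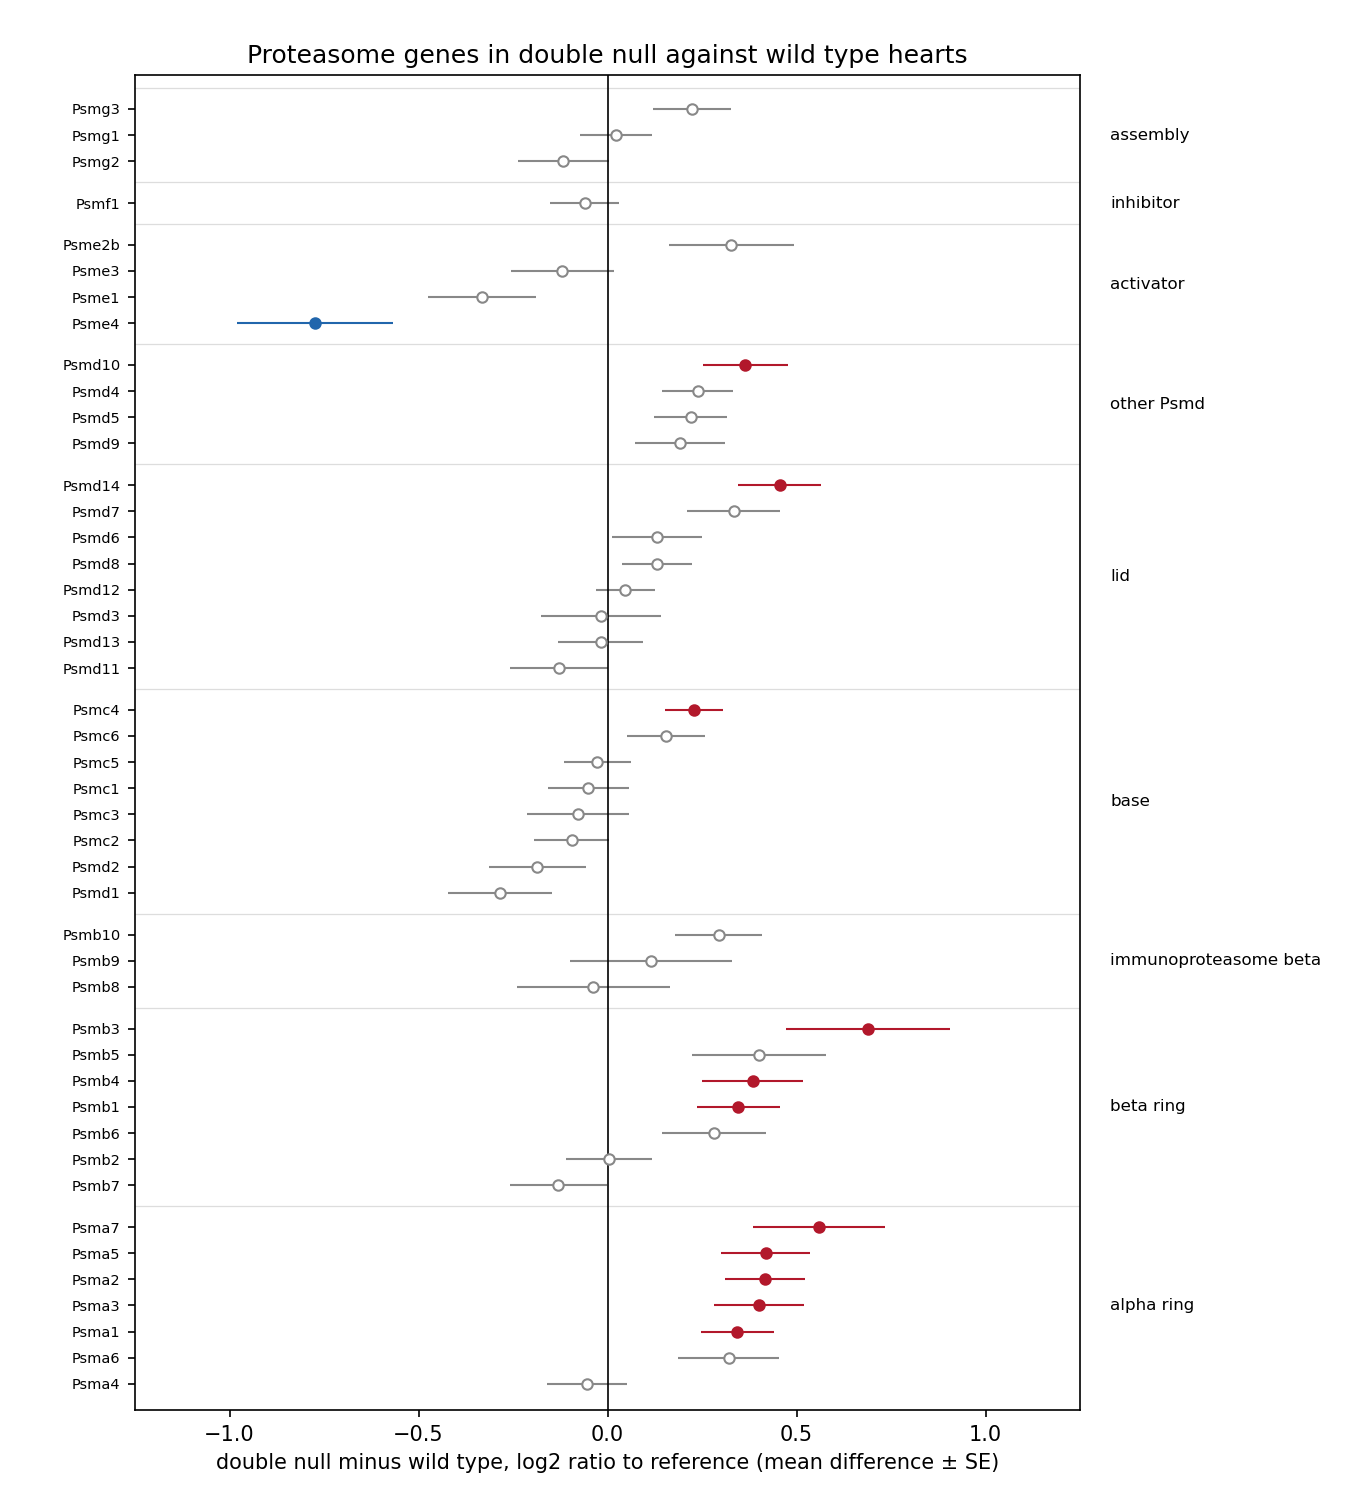
Difference between double null and wild type hearts for the 45 proteasome genes (horizontal axis, log2, mean difference ± SE from limma, 4 arrays per group), in blocks by their place in the complex. Filled points passed (adjusted p under 0.05; red higher, blue lower), and the alpha ring holds 5 of the 11 filled red points, while Psme4 at -0.77 is the blue one; with median centring the medians of all these blocks are below 0.

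The alpha ring held the most rises. All but Psma4 of its 7 tested subunits were higher in double null hearts, 5 of them past the threshold (51.4% of all genes were higher), with a median difference of 0.40 against 0.01 for all genes (-0.91 with median centring). The median level of the ring on an array was -0.07 to 0.08 in wild type and 0.03 to 0.42 in double null hearts, with overlap. The group means of that level were -0.00 and 0.20, and 0.23 in MuRF1 null MuRF2 het hearts. Psma2 was at -0.08, 0.08, 0.14 and 0.16 on the wild type arrays and at 0.42, 0.42, 0.54 and 0.60 on the double null arrays. Every double null array thus lay above every wild type array, and the difference of 0.42 ± 0.11 (SE) passed (adjusted p = 0.0124) also when any 1 array was left out. Psma5 went from -0.82, -0.75, -0.72 and -0.67 in wild type to -0.46, -0.44, -0.28 and -0.11 in double null hearts, a difference of 0.42 ± 0.12 (adjusted p = 0.0213) with no overlap.

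Psma7 was at -0.04, 0.25, 0.29 and 0.37 in wild type and at 0.35, 0.67, 0.90 and 1.18 in double null hearts. Its groups overlapped by 1 array, and the difference was 0.56 ± 0.18 (adjusted p = 0.0341, and up to 0.105 with 1 array left out), the highest of the ring. Psma1 (0.34 ± 0.10, adjusted p = 0.0207) and Psma3 (0.40 ± 0.12, adjusted p = 0.0274) also had no overlap between groups. Psma6 had none either, at -0.11 to -0.04 against 0.03 to 0.64, but did not pass (0.32 ± 0.13, adjusted p = 0.0904). Psma4 was the lowest of the ring, at -0.06 ± 0.11 (adjusted p = 0.73), and its other probe gave -0.23. Of all genes, 12.6% lay above wild type without overlap, against 7 of the 47 proteasome genes. The median of the ring was 0.30 with the Feature Extraction ratios and 0.23 with brightness as a covariate, and none of the 7 passed in either.

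In the beta ring 3 of 7 subunits rose (42.9%, against 10.3% of all genes), with a median difference of 0.35 (-0.81 with median centring). Psmb3, a structural subunit, was at 0.24, 0.34, 0.38 and 0.66 in wild type and at 0.61, 0.95, 1.34 and 1.48 in double null hearts. Its difference of 0.69 ± 0.22 (adjusted p = 0.0343) was the highest of all 47 genes, and its other probe gave 0.26. The 2 double null arrays on slide 1 held the high values of Psmb3, and 1 of them was double null 2, the dimmest of all arrays. The difference was 0.91 within slide 1 and 0.47 within slide 3. Psmb1 rose from -0.22 to 0.03 in wild type to 0.07 to 0.56 in double null hearts (0.35 ± 0.11, adjusted p = 0.035). Psmb4 was at the threshold (0.38 ± 0.13, adjusted p = 0.05, below 0.05 before rounding) and lost the call without any of 7 of the 8 arrays in turn, with adjusted p up to 0.128.

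The catalytic subunits did not pass. Psmb5, with the chymotrypsin-like site, was at 0.52, 0.63, 0.64 and 0.71 in wild type and at 0.61, 0.94, 1.09 and 1.47 in double null hearts (0.40 ± 0.18, adjusted p = 0.109). Psmb6, with the caspase-like site, differed by 0.28 ± 0.14 (adjusted p = 0.143), and Psmb7, with the trypsin-like site, by -0.13 ± 0.13 (adjusted p = 0.48), the lowest of the beta ring. The spread among double null arrays was wide for Psmb5, with an SD of 0.36 against 0.08 in wild type.

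**Figure D2:**
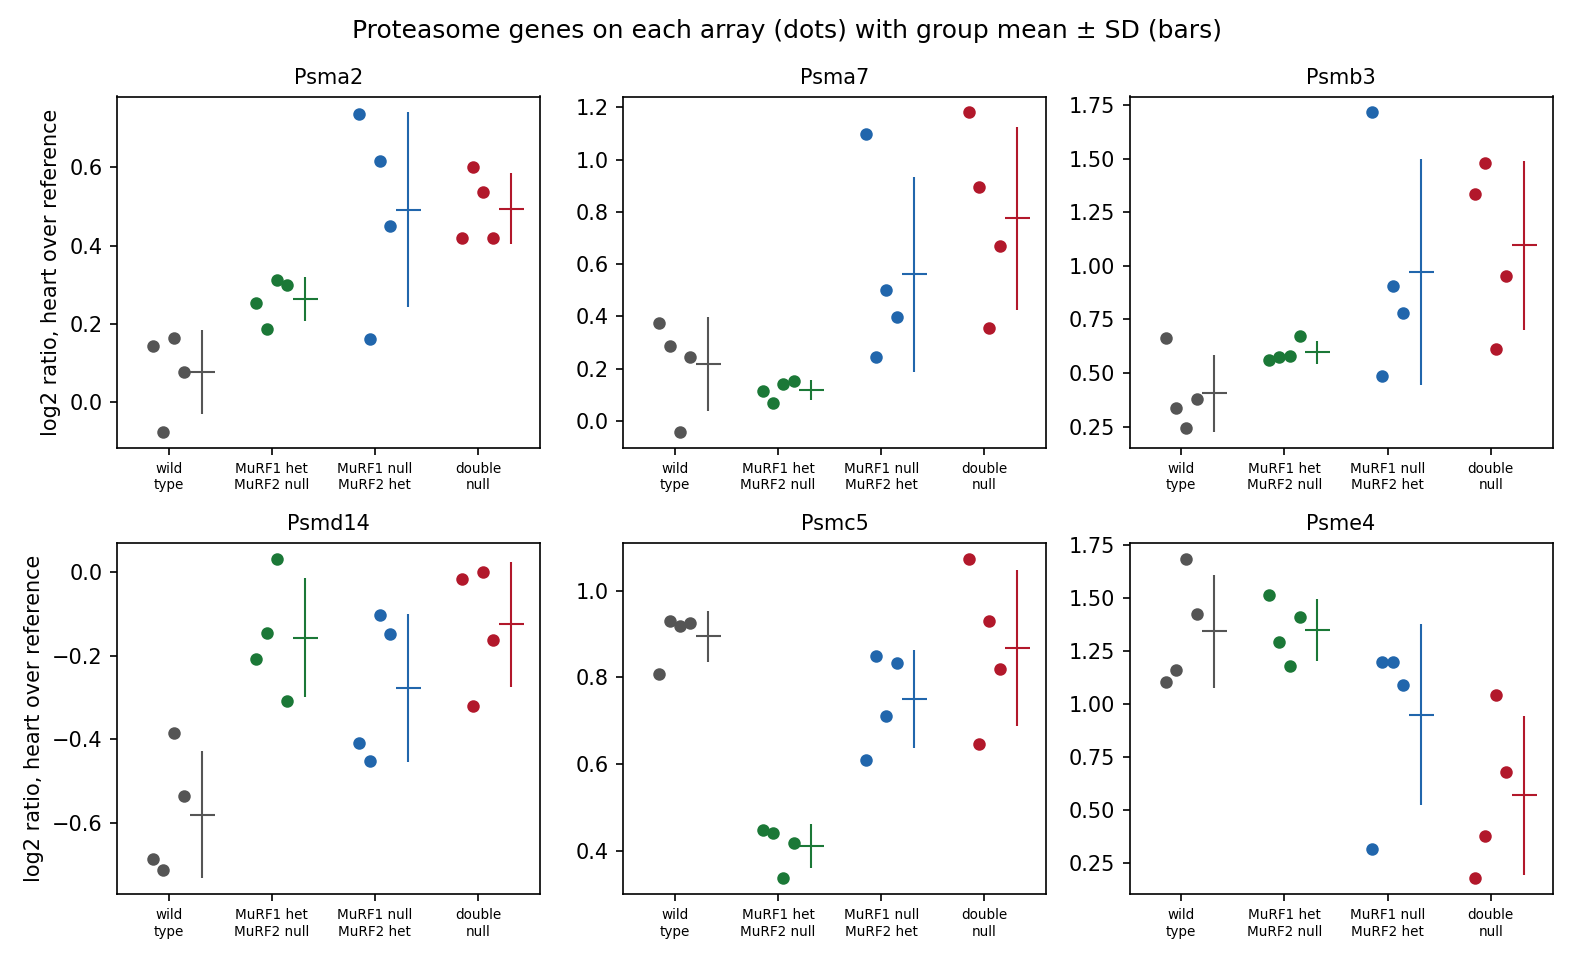
Log2 ratio of heart over reference (vertical axis) on each array for 6 proteasome genes in the 4 genotypes, with the group mean ± SD (n = 4) beside the dots. Psma2 and Psmd14 of double null hearts lie above all wild type arrays, Psme4 below them, and Psmc5 is set apart by the MuRF1 het MuRF2 null arrays at 0.34 to 0.45; with median centring Psma2, Psma7, Psmb3 and Psmd14 turn sign in double null against wild type.

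None of the 3 immunoproteasome subunits passed in double null hearts. Psmb10 was at 0.81, 0.95, 0.99 and 1.02 in wild type and at 1.00, 1.22, 1.30 and 1.44 in double null hearts (0.29 ± 0.12, adjusted p = 0.0749). Psmb9 was at 0.57 to 0.90 against 0.21 to 1.14 (0.11 ± 0.22, adjusted p = 0.724), and Psmb8 at 0.38 to 0.90 against 0.09 to 0.83 (-0.04 ± 0.20, adjusted p = 0.908). Both had their lowest value on the dim array double null 2, where neither was well above background. Within slide 3, which does not hold that array, Psmb9 (0.41, adjusted p = 0.0348) and Psmb10 (0.43, adjusted p = 0.034) passed. Without both dimmest arrays Psmb10 did (0.37, adjusted p = 0.0117). Those fits rest on fewer arrays. Over all ways of processing the difference of Psmb9 ran from -0.36 to 0.61, and it passed in more than the slide 3 fit.

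Each immunoproteasome subunit was also set against the constitutive subunit it replaces, as the difference of their log2 ratios on the same array. This was described and not tested, and only its change between genotypes can be read. For Psmb10 minus Psmb7 it was 0.27 ± 0.22 (SD, n = 4) in wild type hearts, 0.65 ± 0.41 in MuRF1 null MuRF2 het hearts, 0.69 ± 0.08 in double null hearts and 0.84 ± 0.17 in those of MuRF1 het MuRF2 null mice. The double null arrays, at 0.59 to 0.78, lay above the wild type arrays, at 0.03 to 0.55. So did the MuRF1 het MuRF2 null arrays, at 0.60 to 0.97. For Psmb9 minus Psmb6 it was 0.68 ± 0.13 in wild type and 0.52 ± 0.50 in double null hearts, and for Psmb8 minus Psmb5 0.00 ± 0.14 and -0.44 ± 0.50, so those pairs overlapped. In MuRF1 het MuRF2 null hearts both were higher than in wild type, at 0.97 ± 0.20 and 0.30 ± 0.28, also with overlap. In MuRF1 null MuRF2 het hearts they were 0.84 ± 0.66 and -0.04 ± 0.76.

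**Figure D3:**
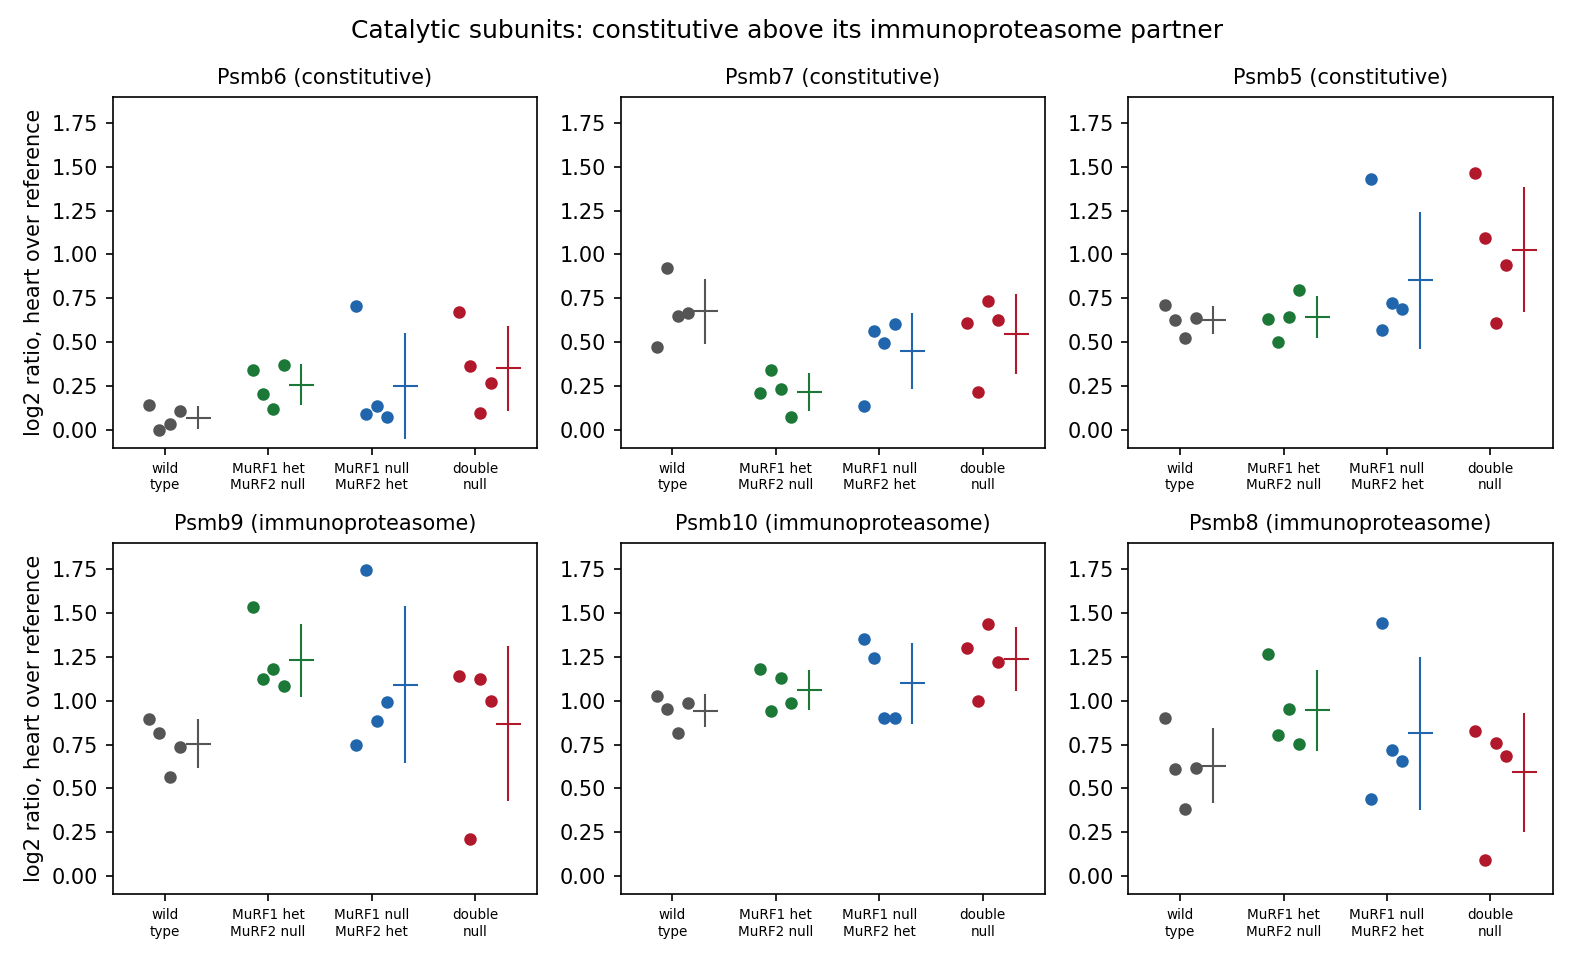
Log2 ratio of heart over reference (vertical axis) on each array for the 3 constitutive catalytic subunits (top) and the immunoproteasome subunit that replaces each (bottom), with group mean ± SD (n = 4). The single low double null dots of Psmb9 at 0.21 and Psmb8 at 0.09 are the dim array double null 2.

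In the base 1 of 8 subunits rose (12.5%, near the 10.3% of all genes), and the median difference was -0.06 (-1.16 with median centring). Psmc4, an ATPase, was at -0.22, -0.11, -0.06 and 0.05 in wild type and at -0.00, 0.16, 0.18 and 0.23 in double null hearts (0.23 ± 0.08, adjusted p = 0.043), but its other probe gave 0.02. The scaffold subunit Psmd1 was the lowest of the base, at -0.29 ± 0.14 (adjusted p = 0.138). The other ATPases lay between -0.09 (Psmc2) and 0.16 (Psmc6).

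In the lid 1 of 8 subunits rose (12.5%, near the 10.3% of all genes), with a median of 0.09 (-0.83 with median centring). Psmd14, the subunit that cuts ubiquitin chains off the substrate, was at -0.71, -0.69, -0.54 and -0.39 in wild type and at -0.32, -0.16, -0.02 and -0.00 in double null hearts, with no overlap. The difference of 0.46 ± 0.11 (adjusted p = 0.0102) passed also without any 1 array, with brightness as a covariate (0.56, adjusted p = 0.00784) and within slide 3 (0.38, adjusted p = 0.0489), and its other probe gave 0.37. It did not pass with the Feature Extraction ratios (0.42, adjusted p = 0.0551), the Cy5 channel alone (0.37, adjusted p = 0.0553) or within slide 1 (0.53, adjusted p = 0.19), and turned to -0.62 with median centring. Against wild type, Psmd14 was also higher in MuRF1 het MuRF2 null hearts, without overlap but not past the threshold (0.42 ± 0.11, adjusted p = 0.0606), and double null and MuRF1 het MuRF2 null hearts differed by 0.03 ± 0.11 (adjusted p = 0.856). Psmd7, the partner with which Psmd14 forms its active dimer, differed by 0.33 ± 0.12 (adjusted p = 0.0612), and its other 2 probes gave 0.12 and, above background on 6 arrays, 0.05. Psmd11 was the lowest of the lid, at -0.13 ± 0.13 (adjusted p = 0.492). Psmd12 gave 0.05 by its brightest probe and -0.12 and 0.15 by the others.

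The remaining Psmd genes encode a ubiquitin receptor (Psmd4) and chaperones of base assembly (Psmd5, Psmd9, Psmd10). All 4 had higher means in double null hearts (51.4% of all genes did), at 0.19 to 0.36. Their median difference was 0.23, and -0.38 with median centring. Only Psmd10 passed. It was at -0.04, 0.04, 0.15 and 0.21 in wild type and at 0.15, 0.36, 0.54 and 0.77 in double null hearts (0.36 ± 0.11, adjusted p = 0.0318). Psmd9 was the lowest at 0.19 ± 0.12 (adjusted p = 0.242), and its other probe gave -0.01. The core-assembly chaperones Psmg1, Psmg2 and Psmg3 differed by 0.02, -0.12 and 0.22 and the inhibitor Psmf1 by -0.06, with none past the threshold, and the other probe of Psmf1 gave 0.10.

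Among the 4 activator genes Psme4 fell and none rose. It encodes a large single-chain cap that opens the core without ATP or ubiquitin. Of its 4 probes, 1 was well above background on no array and was not used. Of the other 3, these 2 are shown, 5′ to 3′, because by the positions in the array files they span a splice junction and so read spliced mRNA:
Psme4 probe A: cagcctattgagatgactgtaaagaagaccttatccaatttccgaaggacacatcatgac
Psme4 probe B: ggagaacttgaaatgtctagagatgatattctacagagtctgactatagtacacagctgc

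By its brightest probe, which is not shown, Psme4 was at 1.10, 1.16, 1.42 and 1.69 in wild type and at 0.18, 0.38, 0.68 and 1.04 in double null hearts. No double null array reached the wild type range, and the difference was -0.77 ± 0.21 (adjusted p = 0.016). Probe A fell by 0.76 between the same groups, from 1.20 ± 0.30 (SD, n = 4) to 0.45 ± 0.46. Probe B read 0.74 ± 0.08 in wild type hearts and 0.17 ± 0.26 in double null ones, where it was well above background on 1 of 4 arrays, so its difference is not exact. The difference was -0.85 within slide 1 and -0.69 within slide 3, and -2.18 with median centring. It did not pass with brightness as a covariate (-0.39, adjusted p = 0.199) or without wild type 3 (-0.66, adjusted p = 0.0582).

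The other activators did not pass. Psme1 and the Psme2 product form a joint ring that caps the core, yet their values differed in sign: Psme1 was at 0.77, 0.81, 0.91 and 1.06 in wild type and at 0.15, 0.49, 0.68 and 0.89 in double null hearts (-0.33 ± 0.14, adjusted p = 0.0994), whereas Psme2b differed by 0.33 ± 0.17 (adjusted p = 0.154). The mostly nuclear activator Psme3 differed by -0.12 ± 0.14 (adjusted p = 0.548).

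The other 2 comparisons against wild type share its 4 arrays with the one above. In MuRF1 null MuRF2 het hearts no proteasome gene passed (limma; 6 of 47 had an unadjusted p under 0.05, against 23.1% of all genes), where 0.316% of all genes rose and 0.714% fell. With median centring, 25 of the 47 fell here, and the median went from 0.07 to -0.99, that of all genes to -0.51 and that of the alpha ring to -1.01. On the loess scale the alpha ring had a median difference of 0.29 with 6 of 7 subunits above wild type (50.8% of all genes), and the largest of these, Psma2, was at 0.16, 0.45, 0.62 and 0.74 (0.41 ± 0.11, adjusted p = 0.0624). Psma1 was next at 0.34 ± 0.10 (adjusted p = 0.0834). The dim array of this genotype stood above its fellows in several core genes, for instance at 1.10 for Psma7 where the other 3 were at 0.25, 0.40 and 0.50, and at 1.72 for Psmb3 where they were at 0.48, 0.78 and 0.91. Without MuRF1 null MuRF2 het 2, 4 proteasome genes rose. Psme4 was at 0.31, 1.09, 1.20 and 1.20, a difference of -0.39 ± 0.21 (adjusted p = 0.253).

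Of all genes, 0.673% rose and 1.28% fell in MuRF1 het MuRF2 null against wild type hearts. By the brightest probe of each gene, 1 proteasome gene fell there and none rose. That gene was Psmc5, an ATPase of the base. It was measured by 2 probes, both shown because they gave different values and both across a splice junction by the array files, and probe A ends with the stop codon of the reading frame, in capitals:
Psmc5 probe A: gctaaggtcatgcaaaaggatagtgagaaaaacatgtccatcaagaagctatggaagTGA
Psmc5 probe B: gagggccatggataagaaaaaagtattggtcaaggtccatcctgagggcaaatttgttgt

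By the brighter probe A, Psmc5 was at 0.81, 0.92, 0.93 and 0.93 in wild type and at 0.34, 0.42, 0.44 and 0.45 in MuRF1 het MuRF2 null hearts, a difference of -0.48 ± 0.09 (adjusted p = 0.0109). Probe B was at 0.26 ± 0.13 (SD, n = 4) and 0.18 ± 0.07, a difference of -0.08, so the fall was seen by 1 of 2 probes. With the mean of both probes the difference was -0.28 and did not pass (adjusted p = 0.156), nor did it with the Feature Extraction ratios (-0.225, adjusted p = 0.599). The 4 arrays of this genotype were the only ones on their slide and the only ones read with Feature Extraction 9.5.3.1 rather than 9.1.3.1, which cannot be told apart from genotype. The median difference was -0.01 in the alpha ring and 0.08 in the beta ring. In those 2 blocks the catalytic subunit Psmb7 was the farthest apart, at 0.08 to 0.34 against 0.47 to 0.92 in wild type. Its groups did not overlap, but it did not pass (limma, -0.46 ± 0.13, adjusted p = 0.0782). The immunoproteasome subunits were 0.12 (Psmb10), 0.32 (Psmb8) and 0.48 (Psmb9) above wild type, none past the threshold, although Psmb9 at 1.08 to 1.53 did not overlap with wild type. Of the 47 genes 8 lay above and 7 below wild type without overlap, against 9.37% and 11.4% of all genes.

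**Figure D4:**
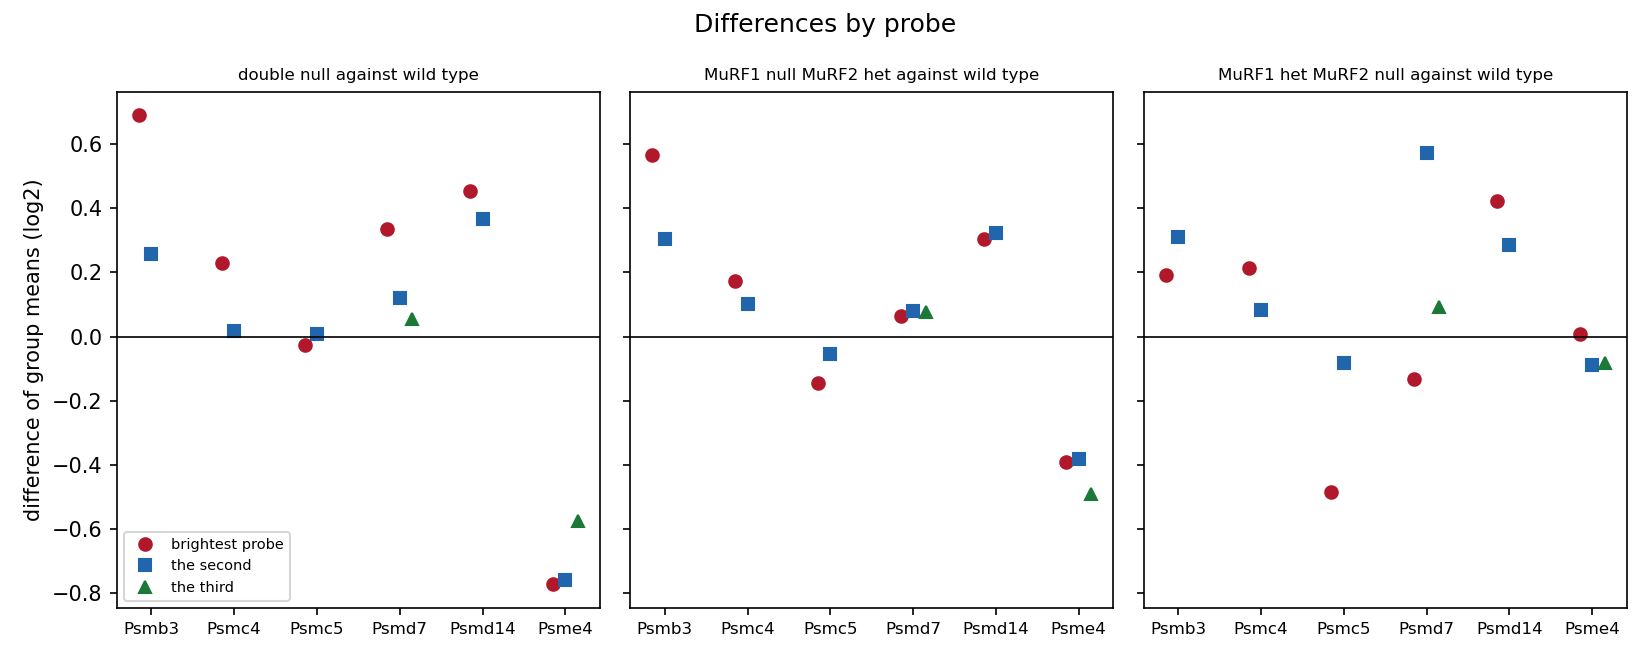
Difference of group means against wild type (vertical axis, log2) by probe for 6 genes with several probes, in the 3 other genotypes. The first 2 probes of Psme4 are at -0.77 and -0.76 in double null hearts. The third, at -0.57, was well above background on 1 of 4 of those arrays. In MuRF1 het MuRF2 null hearts the first 2 probes part for Psmc5 (-0.48 and -0.08) and Psmd7 (-0.13 and 0.57).

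Between double null and MuRF1 null MuRF2 het hearts, which differ in the remaining MuRF2 allele, no proteasome gene passed (limma; 3 of 47 had an unadjusted p under 0.05, against 9.72% of all genes), where 0.162% of all genes rose and 0.187% fell. The median difference was 0.06, and Psme1 was the farthest apart, lower in double null hearts by 0.44 ± 0.14 (adjusted p = 0.249). The MuRF1 null MuRF2 het arrays were alone on their slide, which cannot be told apart from the allele.

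Between double null and MuRF1 het MuRF2 null hearts, which differ in the remaining MuRF1 allele, 8 genes rose and 4 fell. The share that rose, 17%, was near the 13.6% of all genes that rose here, and 12.7% of all genes fell. The MuRF1 het MuRF2 null arrays were alone on slide 4 and alone read with Feature Extraction 9.5.3.1. They were also brighter than every double null array, and none of this can be told apart from the allele. Psma3, Psma5, Psma6 and Psma7, Psmb1, Psmc5, Psmd7 and Psmd10 rose. Psma7 had the largest rise (0.66 ± 0.18, adjusted p = 0.0137, no overlap) and Psmc5 the smallest adjusted p (0.46 ± 0.09, adjusted p = 0.00223), but probe B of Psmc5 gave 0.09. The median of the alpha ring was 0.42. Psmd7 gave 0.47 by its brightest probe (adjusted p = 0.0124) but -0.45 and -0.04 by the other 2, and the mean of its probes -0.01, so its direction rests on the probe taken. The genes that fell were Psme4 (-0.78 ± 0.21, adjusted p = 0.0126), the core-assembly chaperone Psmg2 (-0.43 ± 0.12, adjusted p = 0.0169), the lid subunit Psmd11 (-0.39 ± 0.13, adjusted p = 0.0398) and the ATPase Psmc2 (-0.28 ± 0.10, adjusted p = 0.0461). Without 1 array, the call was lost for 7 of the 8 arrays in Psmc2 (adjusted p up to 0.126), 6 in Psmd11 (up to 0.117), 5 in Psmb1 (up to 0.0913), 3 in Psma6 and 2 in Psma5. With median centring none of the 47 passed here, and Psma3, Psma5, Psma6, Psma7 and Psmb1 turned sign.

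In MuRF1 null MuRF2 het hearts, set against those of MuRF1 het MuRF2 null mice, Psmc5 alone passed, higher by 0.34 ± 0.09 (adjusted p = 0.0308) with probe A and 0.03 with probe B, where 4.56% of all genes rose and 3.98% fell. It lost the call without any of 6 of the 8 arrays in turn. Over the 3 comparisons against wild type, 17 genes were measured by several probes, and their probes differed in sign for 8 genes in MuRF1 het MuRF2 null, 5 in double null and 4 in MuRF1 null MuRF2 het hearts.

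A list of 24 partners of the proteasome held genes for its assembly, its ubiquitin supply and its transcriptional control. Of the 23 tested, 2 rose and 3 fell in double null against wild type hearts, near the shares of all genes (10.3% and 12%), and the median difference was 0.02. Pomp, the chaperone that matures the core, rose from -0.18 to 0.29 in group mean (0.47 ± 0.07, adjusted p = 0.000537), and Txnl1, a thioredoxin-like protein bound to the regulatory particle, rose by 0.55 ± 0.08 (adjusted p = 0.000549); both turned sign with median centring. Pomp rose too when MuRF1 het MuRF2 null was set against wild type (0.37, adjusted p = 0.0133). In double null against wild type hearts, Pomp did not pass with the Feature Extraction ratios (limma, 0.30, adjusted p = 0.083). Nor did it with the Cy5 channel alone (0.16, adjusted p = 0.294). Txnl1 passed with both (0.50, adjusted p = 0.00786, and 0.34, adjusted p = 0.0172). The proteasome scaffold Ecpas (-0.53 ± 0.14, adjusted p = 0.0143), the ubiquitin-activating enzyme Uba1 (-0.32 ± 0.11, adjusted p = 0.0448) and the segregase Vcp (-0.47 ± 0.16, adjusted p = 0.0434) fell. With brightness as a covariate none of those 3 passed (Ecpas -0.23, adjusted p = 0.195; Uba1 -0.14, adjusted p = 0.43; Vcp -0.24, adjusted p = 0.366), whereas Pomp (0.42, adjusted p = 0.00361) and Txnl1 (0.59, adjusted p = 0.00124) did.

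The antigen-processing genes, which interferon induces together with the immunoproteasome, had a median difference of -0.20 in double null against wild type hearts. Of 13 tested genes, 2 fell and none rose past the threshold, where 12% of all genes fell and 10.3% rose. Past the threshold or not, 3 of the 13 were above wild type. The interferon-induced GTPase Gbp2 fell by 0.59 ± 0.20 (adjusted p = 0.0439) and the peptide-loading protein Tapbp by 0.52 ± 0.14 (adjusted p = 0.0174). The list's median was 0.09 within slide 3 and 0.12 with brightness as a covariate, where 1 of the 13 rose, none fell, and neither Gbp2 (-0.07, adjusted p = 0.739) nor Tapbp (-0.21, adjusted p = 0.247) passed. Leukocyte and macrophage markers, cells rich in immunoproteasome, differed with a median of -0.16, 1 of 7 tested rose, and the list's median level was 0.01 to 0.61 on wild type and 0.10 to 0.41 on double null arrays. Cd3e and Itgam were well above background on no array.

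Cell type markers moved in the same comparison, where 10.3% of all genes rose and 12% fell. Of 6 endothelial markers 5 fell in double null against wild type hearts, with a median level of 0.87 to 1.07 on wild type and 0.01 to 0.37 on double null arrays. The 5 fibroblast markers were all above wild type and 1 of them passed, with a median level of -2.96 to -2.91 against -2.78 to -0.94 over 4 of them. The value of -0.94 was the dim array double null 2, and the other 3 double null arrays were at -2.78, -2.45 and -2.41. With brightness as a covariate the median difference of the fibroblast markers went from 0.74 to -0.04, with 2 of 5 above wild type, and that of the adipocyte markers from 0.78 to -0.08. Of the smooth muscle markers 1 of 3 rose (median 0.31), and none of 3 adipocyte (0.78) and 2 erythroid markers (0.54) passed. The 3 genes listed as skeletal muscle markers (Myh4, Ckm and Acta1) ran from -1.90 to 2.26. Of them 1 rose and 2 fell, so their median of -0.89 is no common shift. Whether they read skeletal or heart muscle here was not tested. Of 7 cardiomyocyte markers 2 fell, at a median level of 4.01 to 4.15 against 3.14 to 3.94, so the tissue carried the markers of its label. The part of these shifts in the proteasome values was not tested, and in whole hearts fewer cells of a type and less RNA per cell cannot be told apart.

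**Figure D5:**
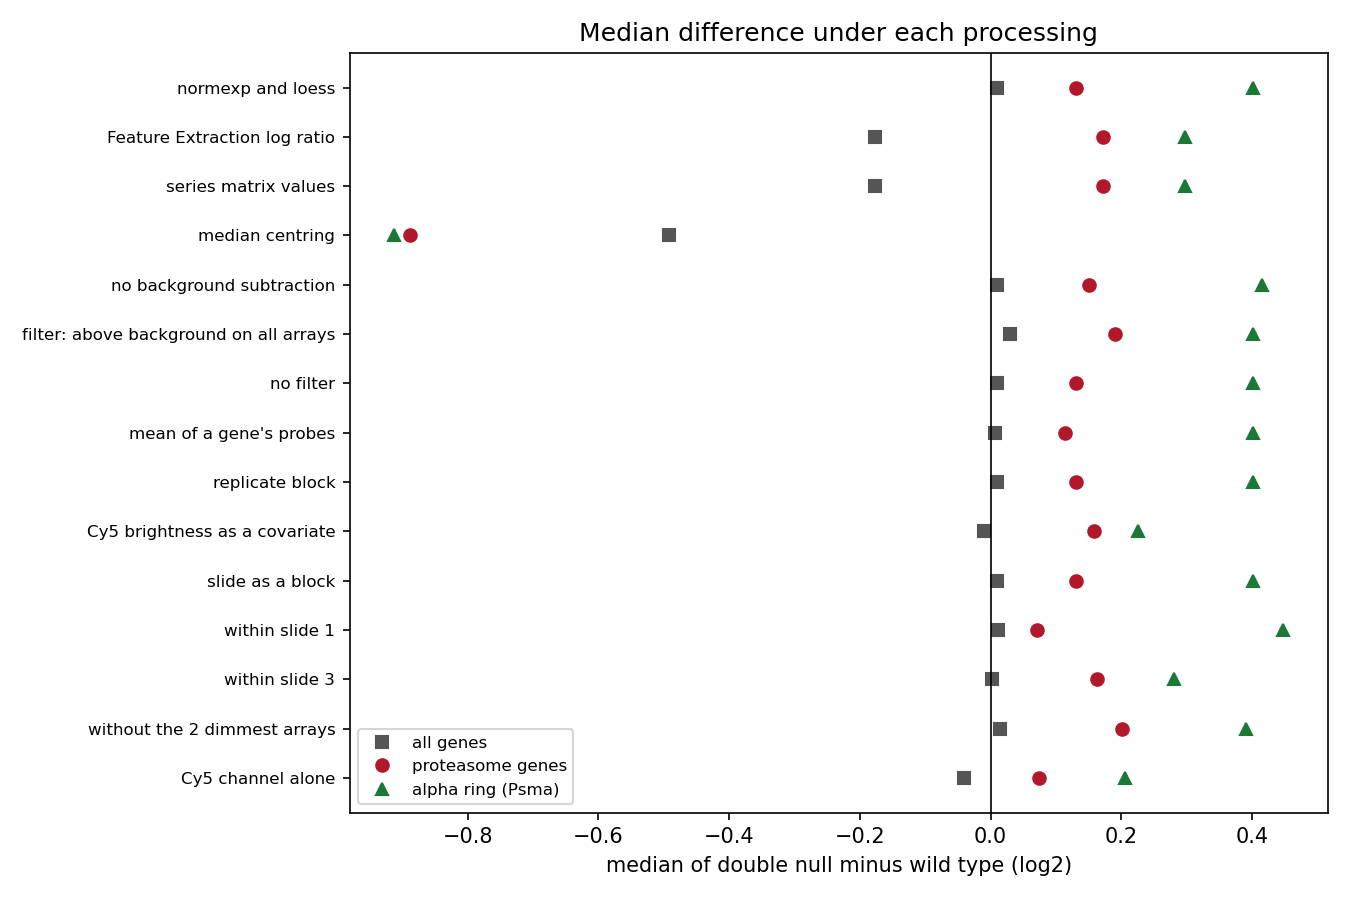
Median difference between double null and wild type hearts (horizontal axis, log2) over all genes, over the 47 proteasome genes and over the alpha ring, under each way of processing (rows). Median centring is the one row where the proteasome genes (-0.89) and the alpha ring (-0.91) lie below 0 and below all genes (-0.49).

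The promoters of the proteasome genes were read for 3 motifs, on both strands, in the 250 bases before each start site (RefSeq, GRCm38.p6). The table held 44 promoters of 41 of the 49 genes. CGGAAG, an ETS motif, was in 21 of the 44, or 47.7%, against 13.6% of all 32851 promoters of that length. All 6 lid promoters and 6 of the 8 base promoters held it, against 2 of the 8 alpha ring promoters. TGACNNNGC, the antioxidant response element, was in 5 of the 44 (11.4%, against 10.2% of all) and in none of the 8 of the alpha ring. The interferon-stimulated response element, a longer motif with a paired GAAA, was in 3 (6.82%, against 2.98% of all) and in none of the 3 immunoproteasome promoters. Matches of different motifs may overlap, and a match is a string of letters, not a shown site. Promoters are shown, 5′ to 3′ on the gene's strand, for 4 of the 7 genes that passed in at least 2 of the 6 comparisons: Psmc5, which passed in 3, Psme4, which fell, and Psma5 and Psma7 of the alpha ring. Psma3, Psmb1 and Psmd10 also passed in 2 and are not shown. Capitals mark motif matches, of which the only one is the CGGAAG of Psme4, starting 52 bases before the start site.
Psma5 promoter, chr3:108256676-108256925, plus strand: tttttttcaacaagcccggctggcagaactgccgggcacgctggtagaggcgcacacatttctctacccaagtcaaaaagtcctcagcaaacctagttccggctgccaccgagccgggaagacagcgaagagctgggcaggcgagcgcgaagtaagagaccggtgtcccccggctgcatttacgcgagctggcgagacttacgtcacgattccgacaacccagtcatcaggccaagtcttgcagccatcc
Psma7 promoter, chr2:180042465-180042714, minus strand: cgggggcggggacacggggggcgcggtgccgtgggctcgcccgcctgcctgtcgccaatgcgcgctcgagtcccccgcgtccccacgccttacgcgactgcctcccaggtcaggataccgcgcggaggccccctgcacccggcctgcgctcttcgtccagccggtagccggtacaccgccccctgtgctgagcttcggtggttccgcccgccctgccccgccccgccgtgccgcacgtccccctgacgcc
Psmc5 promoter, chr11:106255935-106256184, plus strand: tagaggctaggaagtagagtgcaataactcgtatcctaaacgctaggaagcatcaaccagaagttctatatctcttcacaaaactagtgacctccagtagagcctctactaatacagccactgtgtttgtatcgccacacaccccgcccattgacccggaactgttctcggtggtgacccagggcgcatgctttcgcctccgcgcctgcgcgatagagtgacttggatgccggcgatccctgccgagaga
Psme4 promoter, chr11:30771525-30771774, plus strand: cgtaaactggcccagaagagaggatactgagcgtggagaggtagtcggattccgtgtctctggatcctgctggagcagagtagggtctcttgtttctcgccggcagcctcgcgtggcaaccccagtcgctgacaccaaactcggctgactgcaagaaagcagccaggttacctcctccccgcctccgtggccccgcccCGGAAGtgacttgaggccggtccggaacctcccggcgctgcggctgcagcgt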

How the data were processed

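Heart RNA (Cy5) and a common reference (Cy3) were hybridised to 16 Agilent 2-colour arrays, 4 mice per genotype, which the labels call biological replicates. Per the file headers, Agilent Feature Extraction gave mean and background intensity per channel, a log10 ratio of red over green and flags for background, saturation and uneven spots. The deposited series matrix held that ratio as log2 values, centred for each probe on its median over the arrays. It matched the ratio so centred within 0.01 for 99.95% of values. That share covers probes with 1 spot and Cy5 well above background on all arrays. The extraction kit and labelling are per the labels' protocols.

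From the intensities, background was corrected (normexp, offset 50), ratios were normalised by loess within each array, spots of a probe were averaged, and genes whose brightest probe had Cy5 well above background on at least 4 arrays were kept. Control spots and uneven spots had weight 0. One mean per genotype was fitted over all 16 arrays with limma 3.58.1 (R 4.3.3), with p-values adjusted by Benjamini-Hochberg over 12331 genes and a threshold of 0.05. Symbols were updated by accession for 22951 probes, by current symbol for 6659 and by synonym for 3109, and kept as in the files for 8455. On simulated data for double null against wild type (12331 genes), the fit recovered 51% of 100 genes changed by 0.5 and 90% of 100 changed by 1, with 10 false calls. The simulated noise was drawn independently for each gene and array. It held no shift shared by the genes of an array, such as brightness, so those figures do not cover such shifts. The number of arrays limits the precision.

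Named are the catalytic subunits and their immunoproteasome forms, genes past the threshold in any of the 6 comparisons, the highest and lowest of each block in double null against wild type, genes whose probes differ in direction, and list genes past the threshold in double null against wild type. Genes named outside this rule were chosen after their values were seen. The members and lists were chosen with earlier results of these data known. Alternatives covered the ratio, normalisation, background, filter, probe choice, replicate number, slide, brightness and each array left out, and 2 were added after seeing the data: leaving out the 2 dimmest arrays, and the Cy5 channel alone.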

Additional observations from a re-analysis of the deposited data

Results flagged for a closer look

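Of 188 groups of 4 arrays (47 genes in 4 genotypes), 8 held an array far from the other 3 by Dixon's test, and chance flags about 1 in 20 groups. On the dim array MuRF1 null MuRF2 het 1, the catalytic subunit Psmb6 was at 0.7038 where the other 3 arrays were at 0.07 to 0.14, the activator subunit Psme1 at 1.361 where they were at 0.85 to 0.92, and Psme4 at 0.3144 where they were at 1.09 to 1.20. On the other dim array, double null 2, the immunoproteasome subunit Psmb9 was at 0.2124 against 1.00 to 1.14. In wild type, Psma4 was at 0.01419 on array 1 against 0.12 to 0.14, the ATPase Psmc5 at 0.8071 on array 1 against 0.92 to 0.93, and the lid subunit Psmd3 at -0.3498 on array 3 against -0.18 to -0.15. Psmb3 was at 0.6744 on MuRF1 het MuRF2 null 4 against 0.56 to 0.58.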

How the results depend on the processing

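In double null against wild type hearts, 11 proteasome genes rose, and the count was 2 with the Feature Extraction ratio and with the series matrix values, 0 with median centring, 4 with Cy5 brightness as a covariate, 7 with slide as a block, 0 within slide 1, 6 within slide 3 and 4 with the Cy5 channel alone. Within slide 1, with 2 arrays a group, none of 12330 genes passed, so it says nothing of stability. The genes that fell, 1 in all, were 17 with median centring, 0 within slide 1, 2 within slide 3, 2 without the 2 dimmest arrays and 2 with the replicate block. The median difference of 0.13 was -0.8887 with median centring and 0.2003 without the 2 dimmest arrays, and median centring moved the median of all genes from 0.01 to -0.49.

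Against wild type, 25 genes of MuRF1 null MuRF2 het hearts fell with median centring and 1 rose with the brightness covariate. In MuRF1 het MuRF2 null against wild type hearts, the genes that fell were 0 with the Feature Extraction ratio, the series matrix values or the mean of a gene's probes, 3 with the brightness covariate, 2 without the dimmest arrays and 3 with Cy5 alone; those that rose were 1 with the replicate block, 2 with the brightness covariate, 2 without the dimmest arrays and 1 with Cy5 alone. For double null against MuRF1 null MuRF2 het, 1 gene passed with the brightness covariate and 1 without the dimmest arrays. For double null against MuRF1 het MuRF2 null, the 12 genes that passed were 7 with the Feature Extraction ratio, 7 with the series matrix values, 0 with median centring and 21 with Cy5 alone. Between the 2 genotypes with 1 intact allele, the count of 1 was 0 with the Feature Extraction ratio, series matrix values, median centring, mean of probes or replicate block, 4 with the brightness covariate, 2 without the dimmest arrays and 14 with Cy5 alone. The causes were not tested.

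With median centring these genes turned sign in double null against wild type: Psma1 (-0.965), Psma2 (-0.9753), Psma3 (-0.5908), Psma5 (-0.9124), Psma7 (-0.7622), Psmb1 (-0.8138), Psmb3 (-0.699), Psmb4 (-1.007), Psmb5 (-0.7698), Psmb6 (-1.037), Psmb9 (-0.3612), Psmb10 (-0.8887), Psmc4 (-0.8207), Psmd10 (-0.1848) and Psmd14 (-0.6176). Against MuRF1 het MuRF2 null, values turned for Psma3 (-0.03063), Psma5 (-0.3528), Psma6 (-0.1463), Psma7 (-0.05125) and Psmb1 (-0.2437) in double null hearts, and for Psmc5 (-0.112) in MuRF1 null MuRF2 het hearts. Psmb7 and Psmb8, which had no call, turned to 0.1707 and 0.3754 with the brightness covariate, 0.04936 and 0.04099 with Cy5 alone, 0.01992 and 0.02694 with the Feature Extraction ratio, 0.02027 and 0.02653 with the series matrix, and 0.02286 and 0.2212 within slide 3, and Psmb8 to 0.1285 without the dimmest arrays. Psmb9 was -0.1808 within slide 1, and Psmd7 in double null against MuRF1 het MuRF2 null was -0.006886 with the mean of its probes.

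Leaving out 1 array at a time, the genes that rose in double null against wild type were 2 to 13: 2 without double null 1, 3 without wild type 2, and 4 without wild type 3, wild type 4 or double null 4. The genes that fell were 0 to 2, with 0 without wild type 3 and 2 without double null 1, and the median was 0.08591 to 0.2003, highest without double null 2. Psmb8 turned to 0.05426 without wild type 1 and to 0.1285 without double null 2, and was -0.1193 at its lowest, without wild type 3. In MuRF1 null MuRF2 het against wild type 0 to 4 rose (4 without MuRF1 null MuRF2 het 2). In MuRF1 het MuRF2 null against wild type 0 to 1 rose (1 without wild type 3) and 1 fell each time. Between double null and MuRF1 null MuRF2 het 0 to 1 passed (1 without double null 2), between double null and MuRF1 het MuRF2 null 7 to 16 (7 without double null 1), and between the other pair 0 to 5 (5 without MuRF1 null MuRF2 het 2).

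The replicate numbers did not pair the arrays: the correlations of same-numbered arrays' deviations ranged from -0.611 to 0.363, and 3 of 16 arrays correlated best with their own number. With the replicate block 10 genes rose and 2 fell in double null against wild type hearts.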
